A study of Mus musculus with 6 samples.

Results

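Transcripts of the translation initiation factors (eIFs) were followed in growing mouse oocytes with and without PABPN1, the nuclear poly(A) binding protein. The members were every gene symbol of the expression table that begins with Eif and a digit from 1 to 6. Argonaute genes under their older Eif2c symbols, the eIF2 kinases (Eif2ak genes), Eif4a3, Eif4e1b and Eif4enif1 were left out, which removed 11 symbols. This rule found 47 of 23235 rows. They were grouped by symbol as eIF1 (5 members), eIF2 (4), eIF2B (5), eIF3 (13), the eIF4 factors with their binding proteins (13), eIF5 (4), and 3 others, Eif2a, Eif2d and Eif6. The eIF1 group also holds the eIF1A genes and Eif1ad. The eIF5 group also holds Eif5a, Eif5a2 and Eif5b, so neither group is a single factor. All 47 symbols matched 1 protein-coding gene each in GENCODE vM1, an annotation of mm9, the build used by the authors.

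The study sequenced 3 samples of Pabpn1-null oocytes and 3 samples of WT oocytes from mice labelled C57BL/6, with 10 growing oocytes pooled in each sample. The Pabpn1-null samples, labelled PABPN1-GDF9, were taken from Pabpn1fl/fl;Gdf9-Cre mice. There the Gdf9 promoter drives Cre recombinase in oocytes from the primordial follicle stage onward and the follicle cells keep the gene. The sources used here give no mouse age for this sequencing and do not say whether each sample came from a separate mouse, so each p-value reflects only how these samples spread. Libraries were made by the Smart-seq2 method with oligo-dT primers, so that a transcript is captured by its poly(A) tail, and values are FPKM (fragments scaled to transcript length and to the mapped fragments of the library).

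In eukaryotic cells, translation begins when a small ribosomal subunit is loaded with initiator tRNA, recruited to the capped 5′ end of an mRNA and moved along it to the start codon. eIF2 delivers the initiator tRNA and is recharged with GTP by its exchange factor eIF2B, eIF3 holds the complex together on the small subunit, and the eIF4 factors bind the cap and unwind the mRNA. eIF1 and eIF1A keep the selection of the start codon accurate, eIF5 is the GTPase activator of eIF2, and eIF5B joins the large subunit. Oocytes store many mRNAs for later use, and control of this step sets which of them are translated while transcription is silent.

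Pabpn1 itself was at 0.595, 0.878 and 1.37 FPKM in the Pabpn1-null samples, against 21.9, 33.4 and 21.8 FPKM in the WT samples, so that its mean was 3.68% of that in WT. Oocyte markers were high in every sample, with a sum over 10 genes of 16850 to 18560 FPKM in Pabpn1-null and 14610 to 17690 FPKM in WT samples. Summed over each list, granulosa cell markers were at 36.5 to 55.2 against 36.9 to 40.2 FPKM, theca and stroma markers at 0.156 to 0.356 against 0.875 to 1.80 FPKM, endothelial markers at 9.15 to 12.1 against 7.95 to 9.78 FPKM, and blood and immune markers at 1.18 to 2.65 against 1.97 to 3.71 FPKM (Pabpn1-null against WT). Cdh5, Hba-a1 and Hbb-b1 were listed at 0 in all samples. The part of these cells in the results was not tested.

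The initiation factors did not move as a block. At an adjusted p under 0.05 from limma, 11 of the 46 members that passed the filter were higher in Pabpn1-null oocytes, 12 were lower, and 23 did not pass. Of all 12523 rows kept (FPKM above 1 in at least 1 sample), 27.9% were called higher and 20.2% lower, so the shares of members called were near those of the whole table. These shares of all rows stand beside the counts of each group below. Samples of the genotypes did not overlap for 28 members, of which 14 were above and 14 below WT, beside 33.3% of all rows above and 24.7% below. The median log2 change, on the log2(FPKM + 1) scale that understates the change of low transcripts, was -0.04 over the members and 0.09 over all rows. The remaining member, Eif2s3y, the Y-linked copy of the eIF2 gamma subunit gene, was listed at 0 in all 6 samples. Summed over the members, FPKM was 5544, 5471 and 5634 in the Pabpn1-null samples, against 6490, 5608 and 6334 in the WT samples, and these sums overlapped.

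The scale of the samples decided the balance of rises and falls. FPKM values depend on the mapped reads of their own sample, and the number of transcripts in an oocyte and the share of them captured by oligo-dT cannot be told apart in it. Nor can fewer oocytes with a transcript and less of it per oocyte be told apart in pools of 10. The deposited values led to the group means of a supplementary table of the study through 1 factor per sample, estimated here as 0.833 for each Pabpn1-null sample and 1.00, 1.42 and 1.31 for the WT samples. The paper states that expression levels in FPKM were also normalized by the ERCC spike-in. Whether the factors estimated here are those of the spike-in is not given in the sources used here. After multiplication by these factors, called the rescaled values below, the median log2 change of all rows was -0.36, 9.4% of rows were called higher and 35.5% lower. Of the members, 0 were then higher (0 of the 11 kept their call) and 24 lower, with a median log2 change of -0.59. The 7 members called lower under every one of 16 alternatives, the rescaled values included, were Eif1ax, Eif2s2, Eif3e, Eif3m, Eif4e2, Eif4e3 and Eif5b. Every rise given below was lost with the rescaled values, where Eif4b and Eif4h turned sign to log2 changes of -0.01 and -0.06. Set against the median of all rows in the same scaling, the group medians moved less. Where each sample is multiplied by 1 factor this follows by construction, so it is no check of the order. Over 5 scalings, the eIF4 median minus that of all rows was 0.25 to 0.32, while this difference was -0.498 to -0.27 for eIF2 and -0.36 to -0.087 for eIF3. For eIF1 this difference was 0.068 to 0.18, and for eIF2B and eIF5 it changed sign between scalings. Quantile normalization does not use 1 factor per sample. It gave 0.30 for eIF4, -0.27 for eIF2 and -0.087 for eIF3, and put eIF5 (0.16) and eIF2B (0.14) above eIF1 (0.11).

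**Figure D1:**
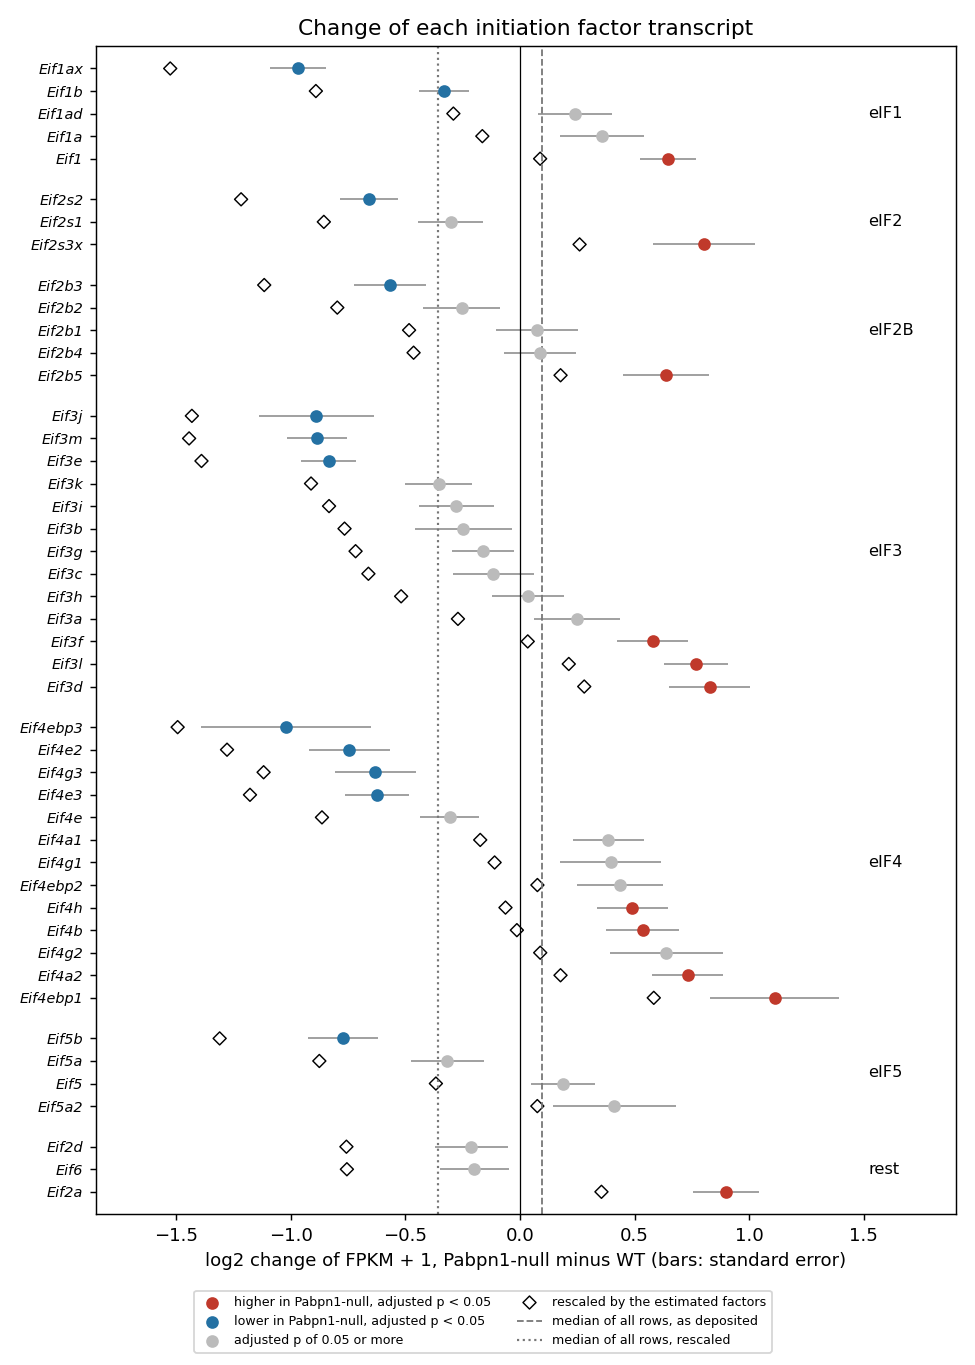
Log2 change of FPKM + 1 (Pabpn1-null minus WT, horizontal axis) of the 46 members that passed the filter, by factor. Filled points are deposited values with the standard error from limma, coloured by call, and open diamonds are the rescaled values; the 11 red points lie between 0.49 and 1.11 and the 12 blue points between -1.02 and -0.33, and all diamonds lie left of their points.

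The eIF1 group holds Eif1ad and the genes of eIF1 and eIF1A, the factors that guard start codon selection. In it, 1 of 5 members was higher and 2 were lower, beside 27.9% of all rows higher and 20.2% lower. Eif1 was at 562, 528 and 555 FPKM in Pabpn1-null samples, against 396, 318 and 340 FPKM in WT samples. Its log2 change was 0.65 (standard error, SE, 0.12, limma adjusted p = 0.00220), and the genotypes did not overlap. Its close paralog Eif1b was at 592, 552 and 557 FPKM in Pabpn1-null samples, against 747, 676 and 720 FPKM in WT samples. Eif1b was thus lower in every Pabpn1-null sample, with a log2 change of -0.33 (SE 0.11, limma adjusted p = 0.0306). This call was lost under 8 of 16 alternatives, among them leaving out any 1 of Pabpn1-null replicates 1, 2 and 3 or WT replicates 1 and 3, and quantile normalization turned the change to 0.10. Eif1ax, the X-linked eIF1A gene, ranked below Eif1b alone among the members in WT oocytes by mean FPKM. It was at 323, 286 and 344 FPKM in Pabpn1-null samples, against 659, 588 and 616 FPKM in WT samples, so the groups stood far apart. Its log2 change of -0.97 (SE 0.12, limma adjusted p = 2.48e-04) was the largest fall of a member called under every alternative. Eif1a, the autosomal eIF1A gene, was at 16.8 ± 0.511 FPKM in Pabpn1-null and 13.1 ± 2.66 FPKM in WT oocytes (SD, n = 3 each). Neither Eif1a (log2 change 0.36, limma adjusted p = 0.132) nor Eif1ad, which carries an eIF1A domain (log2 change 0.24, limma adjusted p = 0.243), passed the test.

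Eif1 and Eif1b moved in opposite directions, so their coding sequences are shown to judge whether reads could be assigned to the wrong paralog. Eif1 lies on chromosome 11 of mm9 from 100181199 to 100183410 and Eif1b on chromosome 9 from 120401724 to 120404445, both on the plus strand. The opening 150 coding bases of each, from the start codon and read from GENCODE vM1 transcripts, are given 5′ to 3′, with the 25 bases that differ in capitals.
Eif1: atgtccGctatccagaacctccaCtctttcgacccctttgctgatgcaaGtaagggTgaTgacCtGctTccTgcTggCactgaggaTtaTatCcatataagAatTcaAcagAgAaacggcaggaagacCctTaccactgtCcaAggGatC
Eif1b: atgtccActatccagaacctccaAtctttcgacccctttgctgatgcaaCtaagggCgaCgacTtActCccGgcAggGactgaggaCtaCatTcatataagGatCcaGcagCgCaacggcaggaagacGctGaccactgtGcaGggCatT
The capitals run through the whole stretch, and 21 of the 25 fall at the last base of a codon. Over the full 342 coding bases the genes shared 81.3%, with 64 differences and no identical stretch longer than 25 bases, shorter than the 50-base reads used by the authors. Of the 50-base windows in the exons of Eif1, 67.6% occurred once in mm9, against 100% for Eif1b, so other copies of Eif1 sequence exist in the genome and its level is the less certain of the pair. Within each sample, Eif1 held 48.7%, 48.9% and 49.9% of the summed FPKM of the pair in Pabpn1-null oocytes, against 34.6%, 32.01% and 32.06% in WT oocytes. A share of this kind does not change with the scale of a sample. The difference of 16.3 percentage points had p = 0.1 in a two-sided exact permutation test, the smallest that 3 samples against 3 allow, and 0.18 when adjusted over 9 paralog shares.

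The 3 measured genes of eIF2, the trimer that carries initiator tRNA, went apart. Eif2s2, the beta subunit (chromosome 2, 154697146 to 154718671), was at 219, 186 and 233 FPKM in Pabpn1-null samples, against 327, 346 and 333 FPKM in WT samples. The groups did not overlap, and its log2 change of -0.66 (SE 0.13, limma adjusted p = 0.00224) passed the test under every alternative. Eif2s3x, the X-linked gamma subunit that binds GTP and the tRNA, was at 41.7, 38.6 and 39.3 FPKM in Pabpn1-null samples, against 24.9, 29.7 and 15.2 FPKM in WT samples. It was higher, with a log2 change of 0.80 (SE 0.22, limma adjusted p = 0.0143), also without overlap. Only 8.54% of its exonic windows occurred once in mm9, so few reads from it would map uniquely, and its call was also lost with no filter on low values. Eif2s1, the alpha subunit on which eIF2 kinases act, was below WT in every Pabpn1-null sample, at 71.8 ± 6.40 against 89.0 ± 10.0 FPKM (SD, n = 3 each), but did not pass the test as deposited (log2 change -0.30, limma adjusted p = 0.104). The ratio of Eif2s2 to Eif2s1 within a sample was 2.97, 2.88 and 3.02 in Pabpn1-null oocytes, against 3.71, 4.35 and 3.35 in WT oocytes.

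In eIF2B, the exchange factor that reactivates eIF2, both genes of the catalytic subcomplex changed, in opposite directions. Eif2b5, the catalytic epsilon subunit, had the lowest level of the 5 genes and was at 5.99, 6.00 and 6.85 FPKM in Pabpn1-null samples, against 4.46, 3.43 and 3.23 FPKM in WT samples. Its log2 change was 0.64 (SE 0.19, limma adjusted p = 0.0187), a call lost with quantile normalization and without Pabpn1-null replicate 1 or 3. Eif2b3, the gamma subunit that pairs with it, was at 44.5, 41.3 and 45.2 FPKM in Pabpn1-null samples, against 67.7, 53.5 and 76.3 FPKM in WT samples. Its log2 change of -0.57 (SE 0.16, limma adjusted p = 0.0149) lost its call with no filter and with samples scaled to the same total. The 3 genes of the regulatory subcomplex overlapped between the genotypes. Eif2b1 (alpha), Eif2b2 (beta) and Eif2b4 (delta) had log2 changes of 0.07, -0.26 and 0.09, with adjusted p of 0.754, 0.230 and 0.666 from limma. Eif2b1 was by far the most abundant, at 295 ± 24.8 FPKM in Pabpn1-null and 285 ± 67.5 FPKM in WT oocytes (SD, n = 3 each). Eif2b5 stood at 2.13 ± 0.139% of Eif2b1 in Pabpn1-null and 1.35 ± 0.352% in WT oocytes.

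eIF3, the scaffold on the small ribosomal subunit, has 13 subunits, and all 13 transcripts were measured. Of them, 3 were higher, 3 were lower and 7 did not pass the test, beside 27.9% of all rows higher and 20.2% lower. Their median log2 change was -0.16. With the rescaled values 0 were higher and 9 lower, beside 9.4% and 35.5% of all rows. The transcripts of this single complex were at very different levels. Eif3a was at 14.1 FPKM in Pabpn1-null and 11.8 FPKM in WT oocytes, where it was the lowest subunit, and Eif3m at 194 FPKM in Pabpn1-null and 358 FPKM in WT oocytes, where it was the highest. Their log2 changes spread over 1.72, with an SD of 0.59 across the subunits, beside 0.80 across the 5724 rows with a WT mean of at least 10 FPKM.

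Most subunits form a core of 8 proteins with PCI or MPN domains, and within this core 2 genes were higher and 2 lower. Eif3m (chromosome 2, 104839813 to 104857237) was at 198, 171 and 212 FPKM in Pabpn1-null samples, against 374, 327 and 374 FPKM in WT samples. Eif3e (chromosome 15, 43081586 to 43114282) was at 93.7, 84.6 and 92.6 FPKM in Pabpn1-null samples, against 160, 162 and 164 FPKM in WT samples. For both genes the highest Pabpn1-null sample was well below the lowest WT sample. The log2 changes were -0.89 for Eif3m (SE 0.13, limma adjusted p = 5.72e-04) and -0.83 for Eif3e (SE 0.12, limma adjusted p = 5.13e-04), and both calls held under every alternative. In contrast, Eif3l was at 192, 181 and 193 FPKM in Pabpn1-null samples, against 128, 94.4 and 111 FPKM in WT samples. Its log2 change was 0.77 (SE 0.14, limma adjusted p = 0.00180), with no overlap. Eif3f, an MPN subunit, was at 43.7, 51.5 and 39.3 FPKM in Pabpn1-null samples, against 31.0, 31.0 and 26.8 FPKM in WT samples. It was also higher, with a log2 change of 0.58 (limma adjusted p = 0.0123). Eif3k, the partner of Eif3l in the complex, was below WT in every Pabpn1-null sample, at 251 ± 33.0 against 321 ± 38.2 FPKM (SD, n = 3 each), without passing the test (log2 change -0.35, limma adjusted p = 0.0679). Eif3a and Eif3c, the largest scaffold subunits, and Eif3h overlapped between the genotypes, with log2 changes of 0.25, -0.12 and 0.04.

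Outside the core, Eif3d, the subunit that can bind the cap of some mRNAs, was at 62.6, 59.99 and 54.8 FPKM in Pabpn1-null samples, against 34.7, 25.7 and 39.7 FPKM in WT samples. It was higher, with a log2 change of 0.83 (SE 0.18, limma adjusted p = 0.00379), and the groups did not overlap. Eif3j, a loosely bound subunit, was at 16.7, 31.0 and 30.1 FPKM in Pabpn1-null samples, against 46.4, 59.9 and 37.6 FPKM in WT samples. Its log2 change was -0.89 (SE 0.25, limma adjusted p = 0.0156), but the call was lost without Pabpn1-null replicate 1, which was the lowest sample, and without WT replicate 2, which was the highest, as well as with no filter and with samples scaled to the same total. Only 24.2% of the Eif3j windows occurred once in mm9, which makes its level uncertain. In all, 16 of the 46 members had under 90% of windows found once. Among them were Eif4e (65.6%), Eif3e (72.3%), Eif4a1 (73.7%), Eif4a2 (83.6%) and Eif3m (84.7%), whose levels are to that extent less certain. The module of Eif3b, Eif3g and Eif3i overlapped between the genotypes, with log2 changes of -0.25, -0.16 and -0.28 and no call as deposited.

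**Figure D2:**
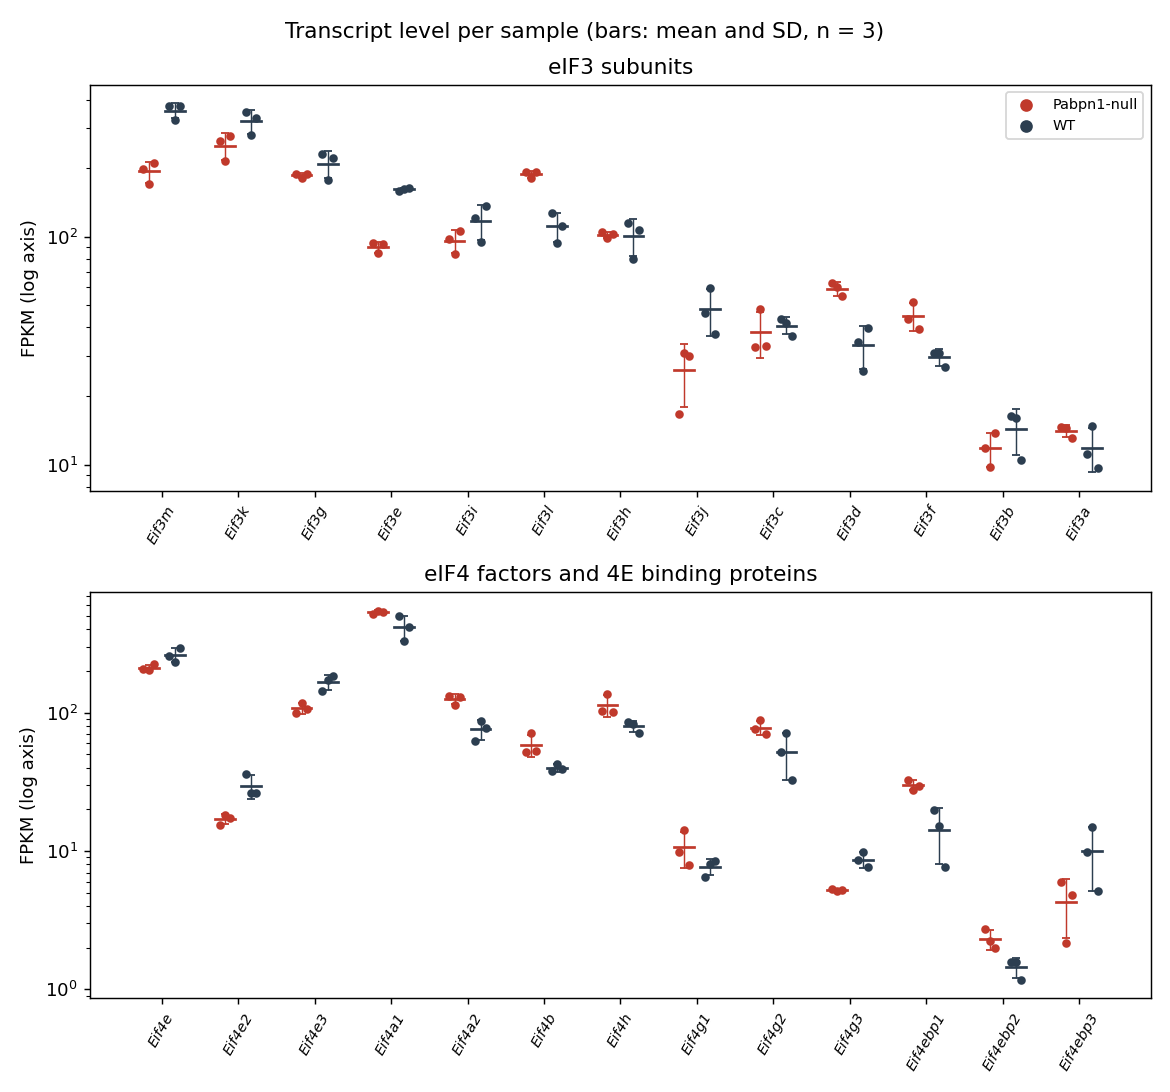
FPKM on a log axis in each Pabpn1-null (red, left of each pair) and WT sample (dark, right) for the eIF3 subunits in order of their WT level and for the eIF4 genes by role, with the mean and SD of 3 samples. Eif3m and Eif3e lie below WT in every Pabpn1-null sample and Eif3l and Eif3d above it, and the 3 eIF4E genes lie below WT while the eIF4A, eIF4B and eIF4H genes lie above it.

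The eIF4 factors had the highest median change of the larger groups, 0.39, and the groups also differed in WT level, as given below. Of 13 genes, 4 were higher and 4 lower, beside 27.9% of all rows higher and 20.2% lower. With the rescaled values 0 were higher and 5 lower, beside 9.4% and 35.5% of all rows, and the median of the 13 genes was -0.11. As deposited, the cap-binding eIF4E genes and the eIF4A helicases with their cofactors lay on opposite sides of WT. With the rescaled values the log2 change was -0.17 for Eif4a1, 0.18 for Eif4a2, -0.01 for Eif4b and -0.06 for Eif4h, none called.

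All 3 eIF4E genes among the members were below WT in every Pabpn1-null sample. Eif4e1b, left out by the rule, is neither in this count nor in the sums of eIF4E genes below. Eif4e, the main cap-binding protein, was at 206, 202 and 224 FPKM in Pabpn1-null samples, against 258, 234 and 293 FPKM in WT samples, and did not pass the test (log2 change -0.31, limma adjusted p = 0.0726). Eif4e2, which binds the cap without joining eIF4G and is known for repressing translation, was at 15.5, 18.2 and 17.4 FPKM in Pabpn1-null samples, against 36.2, 26.1 and 26.2 FPKM in WT samples. Eif4e3, another cap-binding homolog, was at 98.9, 117 and 106 FPKM in Pabpn1-null samples, against 144, 171 and 184 FPKM in WT samples. The last 2 were lower under every alternative, Eif4e2 with a log2 change of -0.74 (SE 0.18, limma adjusted p = 0.00641) and Eif4e3 with -0.62 (limma adjusted p = 0.00512). Eif4e2 lies on chromosome 1 (89110489 to 89137063) and Eif4e3 on chromosome 6 (99207478 to 99616791).

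The helicase side ran the other way as deposited. Eif4a1, the main eIF4A helicase, was at 520, 546 and 538 FPKM in Pabpn1-null samples, against 499, 327 and 420 FPKM in WT samples, without passing the test (log2 change 0.38, limma adjusted p = 0.0631). Eif4a2, its paralog, was at 133, 114 and 130 FPKM in Pabpn1-null samples, against 62.3, 87.3 and 77.7 FPKM in WT samples. It was higher, with a log2 change of 0.73 (SE 0.15, limma adjusted p = 0.00377). The cofactors Eif4b and Eif4h, which stimulate eIF4A, were both higher. Eif4b was at 52.4, 70.9 and 52.5 FPKM in Pabpn1-null samples, against 37.6, 42.6 and 39.1 FPKM in WT samples (log2 change 0.53, limma adjusted p = 0.0200). Eif4h was at 102, 136 and 101 FPKM in Pabpn1-null samples, against 85.2, 83.0 and 71.4 FPKM in WT samples (log2 change 0.49, limma adjusted p = 0.0264). In both genes Pabpn1-null replicate 2 was the highest sample, and without it neither was called. Both calls were also lost with no filter and with median-of-ratios scaling, that of Eif4b without WT replicate 1 and that of Eif4h without WT replicate 3.

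Among the eIF4G scaffolds, which link the cap complex to eIF3 and to the cytoplasmic poly(A) binding protein, Eif4g3 was at 5.29, 5.19 and 5.20 FPKM in Pabpn1-null samples, against 8.62, 9.81 and 7.63 FPKM in WT samples. Its log2 change was -0.63 (SE 0.18, limma adjusted p = 0.0143), a call lost without Pabpn1-null replicate 1 or 3 and with samples scaled to the same total. Eif4g1 and Eif4g2, a relative that lacks the eIF4E binding site, overlapped between the genotypes, with log2 changes of 0.39 and 0.64 and adjusted p of 0.164 and 0.0542 from limma.

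The 4E binding proteins keep eIF4E from eIF4G until mTORC1 phosphorylates them. Eif4ebp1 was at 32.6, 27.8 and 29.4 FPKM in Pabpn1-null samples, against 19.8, 15.2 and 7.64 FPKM in WT samples. Every Pabpn1-null sample was above every WT sample, and its log2 change of 1.11 (SE 0.28, limma adjusted p = 0.00927) was the largest rise among the members, a call lost with no filter as well as with the rescaled values. Eif4ebp3 was at 5.99, 2.17 and 4.78 FPKM in Pabpn1-null samples, against 9.87, 14.9 and 5.18 FPKM in WT samples. These ranges overlapped, and its call (log2 change -1.02, SE 0.37, limma adjusted p = 0.0446) was lost under 9 of 16 alternatives, among them leaving out Pabpn1-null replicate 2 or 3 or WT replicate 1 or 2. Eif4ebp2 was low, at 2.32 ± 0.386 FPKM in Pabpn1-null and 1.45 ± 0.233 FPKM in WT oocytes (SD, n = 3 each), and was not called.

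Of the eIF5 genes, only Eif5b was called. Eif5b, the GTPase that joins the large subunit (chromosome 1, 38054855 to 38112424), was at 17.4, 19.7 and 18.2 FPKM in Pabpn1-null samples, against 28.6, 35.8 and 32.4 FPKM in WT samples. It was lower under every alternative, with a log2 change of -0.77 (SE 0.15, limma adjusted p = 0.00271). Eif5, the GTPase activator of eIF2, was at 114 ± 12.2 FPKM in Pabpn1-null and 100 ± 10.8 FPKM in WT oocytes, and Eif5a, known for resolving stalled elongation, at 320 ± 35.9 against 402 ± 73.9 FPKM (SD, n = 3 each). Neither passed the test, with log2 changes of 0.19 and -0.32. Eif5a2 was near the floor of the filter, at 1.41 to 2.65 FPKM in Pabpn1-null and 0.606 to 2.07 FPKM in WT samples.

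Of the remaining genes, Eif2a, a single-chain protein that can bring initiator tRNA to the ribosome independently of eIF2, was at 44.5, 40.4 and 46.9 FPKM in Pabpn1-null samples, against 23.1, 21.4 and 24.9 FPKM in WT samples. The lowest Pabpn1-null sample was far above the highest WT sample, with a log2 change of 0.90 (SE 0.14, limma adjusted p = 9.40e-04). Eif2d, a tRNA-binding factor of recycling and reinitiation, and Eif6, which keeps large ribosomal subunits apart from small ones, overlapped between the genotypes, with log2 changes of -0.21 and -0.20.

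Shares and ratios within a sample do not depend on its scale, and several of them separated the genotypes. The eIF4 genes held 22.8%, 24.6% and 22.9% of the summed FPKM of the members in Pabpn1-null samples, against 18.8%, 19.5% and 18.5% in WT samples. The eIF3 genes held 23.5 ± 0.855% against 25.3 ± 0.313%, and the eIF2 genes 5.84 ± 0.480% against 7.32 ± 0.699% (SD, n = 3 each, Pabpn1-null against WT). The groups did not overlap in these shares. The most abundant gene weighs heavily in such a sum. Eif4a1, which did not pass the test, was at 535 of 1298 FPKM of eIF4 in Pabpn1-null and 415 of 1163 FPKM in WT oocytes. Eif2s2 was at 213 of 324 FPKM of eIF2 in Pabpn1-null and 335 of 447 FPKM in WT oocytes, while Eif2s3x went the other way. Summed FPKM of eIF4A, eIF4B and eIF4H was 2.52, 2.57 and 2.37 times that of Eif4e, Eif4e2 and Eif4e3 in Pabpn1-null samples, against 1.56, 1.25 and 1.21 times in WT samples. The ratio of Eif3l to Eif3m was 0.970, 1.06 and 0.912 in Pabpn1-null samples, against 0.341, 0.289 and 0.298 in WT samples, so that a pair of unequal transcripts in WT oocytes was nearly equal in Pabpn1-null oocytes. The ratio of Eif3d to Eif3e was 0.656 ± 0.0598 against 0.206 ± 0.0427, and Eif4ebp1 stood at 14.2 ± 1.42% of Eif4e against 5.59 ± 2.65% (SD, n = 3 each, Pabpn1-null against WT). These ratios were chosen with the values known and carry no test. Those with Eif3e, Eif3m, Eif4e, Eif4a1 or Eif4a2 also carry the limit of repeated windows given above.

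**Figure D3:**
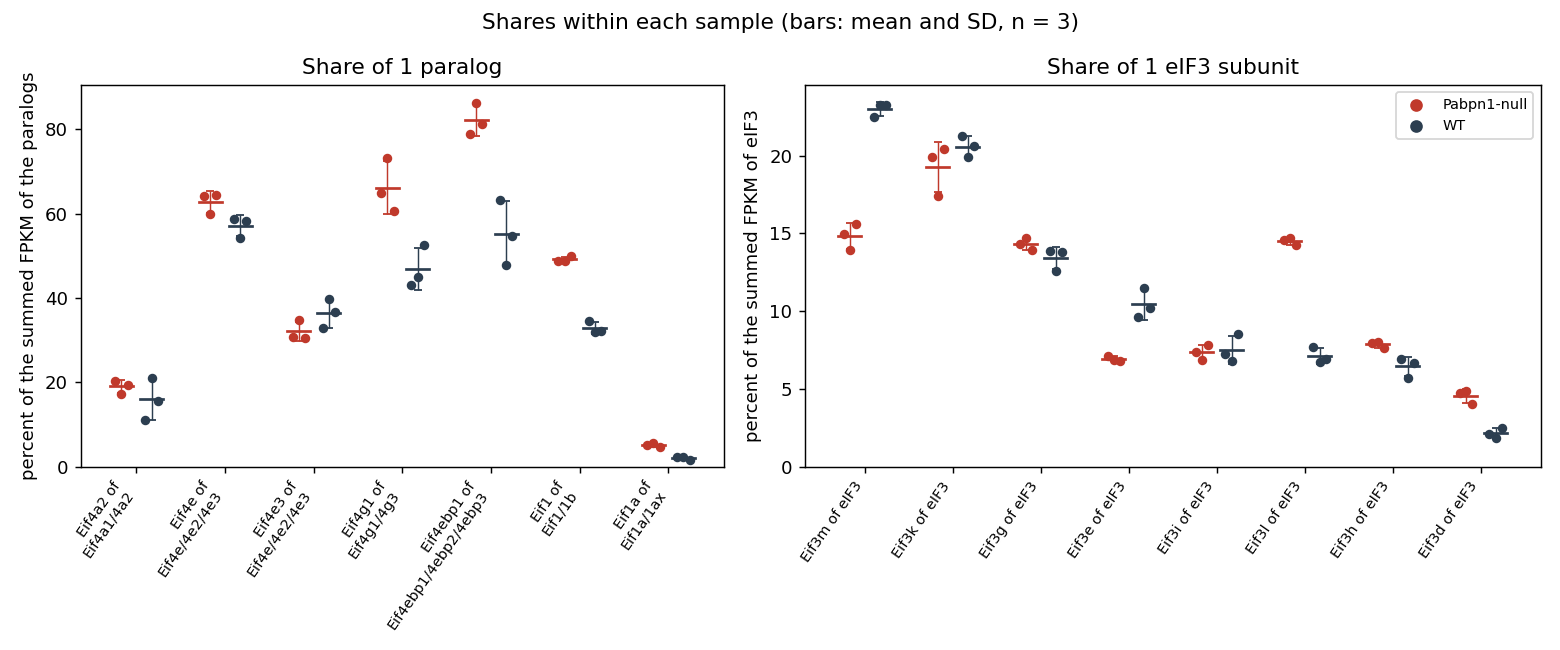
Percent of the summed FPKM of a paralog set taken by 1 paralog (left panel) and of the summed FPKM of eIF3 taken by 1 subunit (right panel) in each Pabpn1-null (red, left of each pair) and WT sample (dark, right), with the mean and SD of 3 samples. Eif1 took 49.2% of its pair in Pabpn1-null against 32.9% in WT oocytes, and Eif3l took 14.5% of eIF3 against 7.11%.

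The paralog sets were compared by share in the same way. Besides Eif1, 4 shares did not overlap between the genotypes, each with p = 0.1 in a two-sided exact permutation test over 3 against 3 samples and 0.18 adjusted over 9 shares. Eif4ebp1 held 82.2 ± 3.79% of the 4E binding protein transcripts in Pabpn1-null and 55.3 ± 7.73% in WT oocytes, and Eif4g1 held 66.2 ± 6.37% against 46.9 ± 4.997% of its pair with Eif4g3. Eif1a held 5.05 ± 0.457% of its pair with Eif1ax in Pabpn1-null and 2.06 ± 0.407% in WT oocytes. Eif4e held 62.9 ± 2.60% against 57.1 ± 2.49% of the summed FPKM of Eif4e, Eif4e2 and Eif4e3 (SD, n = 3 each). The shares of Eif4a2, Eif4e3 and Eif5a2 overlapped between the genotypes, and Eif2s3x held 100% of its pair with Eif2s3y throughout.

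The members were more abundant than most transcripts, with a median over the members' means of 65.5 FPKM in Pabpn1-null oocytes and of 59.0 FPKM in WT oocytes, beside 8.16 FPKM for all rows in WT, and high transcripts fell more often in the whole table. Among the 1297 rows with a WT mean of at least 100 FPKM, 9.56% were called higher and 54.1% lower, with a median log2 change of -0.44. The 18 members at this level had a median of -0.29, and 2 of them were higher and 6 lower. The 16 members with a WT mean of 10 to 50 FPKM had a median of 0.24, beside 0.10 for the 3521 rows at that level. The 6 members at 50 to 100 FPKM had 0.29, beside -0.13 for 906 rows. The 6 members under 10 FPKM had 0.40, beside 0.24 for 6799 rows. At each level the median of the members was thus above that of the rows. The median WT level was 39.8 FPKM for eIF4, 65.8 for eIF2B, 66.3 for eIF5, 89.0 for eIF2, 101 for eIF3 and 351 for eIF1. Whether the order of the group medians follows these levels was not tested. Across the 46 members, which share the same 6 libraries, the Spearman correlation of the log2 change with the WT level was -0.33, and with transcript length -0.06. The WT samples enter both the level and the change. Spread among them alone can therefore push down the correlation with level and the changes at high WT level.

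**Figure D4:**
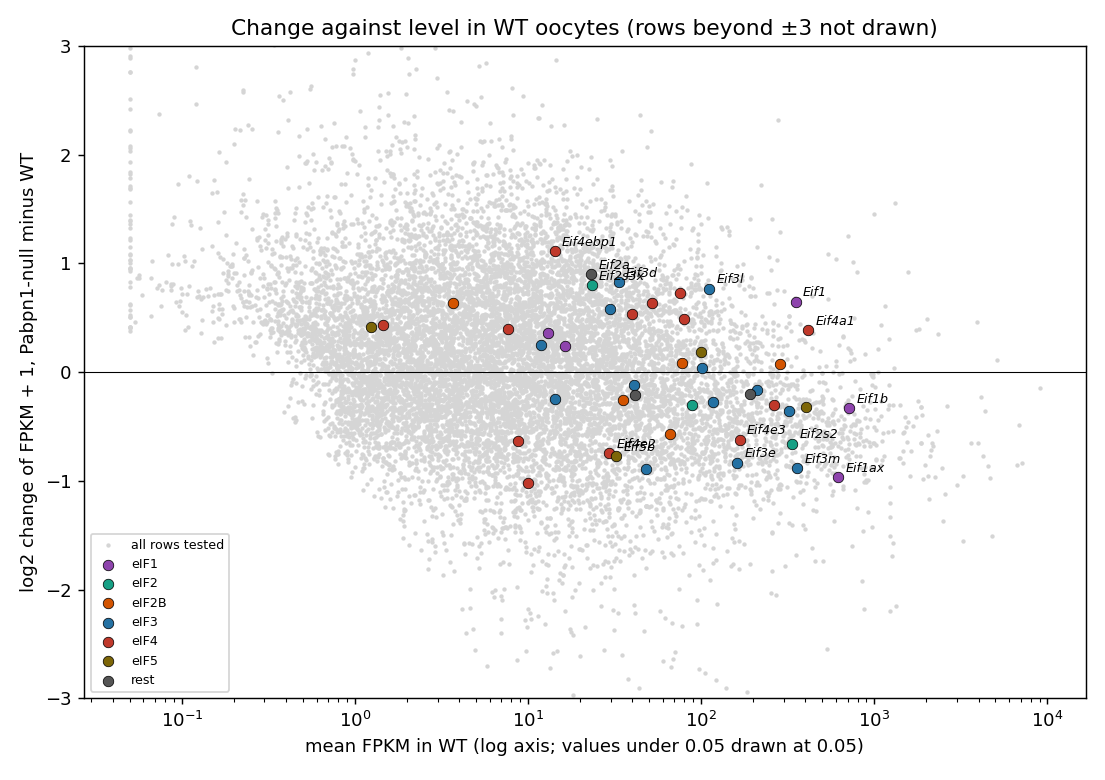
Log2 change of FPKM + 1 (Pabpn1-null minus WT, vertical axis) against the mean FPKM in WT oocytes (log axis) for all 12523 rows tested (grey) and the 46 members (coloured by factor). The 18 members at 100 FPKM or more in WT have a median log2 change of -0.29, beside -0.44 for the 1297 rows at that level.

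Other genes of translation moved in both directions too. The list held 31 genes (elongation, termination and recycling, eIF2 phosphorylation, and regulators of initiation). Of the 30 measured, 6 were higher, 10 lower and 14 did not pass the test, beside 27.9% of all rows higher and 20.2% lower. With the rescaled values 0 were higher and 14 lower, beside 9.4% and 35.5% of all rows. The same shares of all rows stand beside the counts of the smaller lists below. Of the regulators and helicases of initiation, 5 of 9 were lower and 1 was higher, and 5 were lower with the rescaled values. Pdcd4, an inhibitor of eIF4A, was at 11.7, 9.18 and 14.97 FPKM in Pabpn1-null samples, against 60.7, 66.6 and 47.0 FPKM in WT samples. Its log2 change of -2.20 (SE 0.20, limma adjusted p = 6.57e-05) exceeded that of any initiation factor. Paip2b, which keeps the cytoplasmic poly(A) binding protein from eIF4G and the tail, and Paip1, which joins that protein to eIF4A, had log2 changes of -1.64 and -1.01 (adjusted p = 2.18e-04 and 1.57e-04 from limma). Mknk1, a kinase of eIF4E, and Paip2 were also lower, at -0.93 and -0.80, while the helicase Dhx29 was higher at 0.69.

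In termination and recycling, 2 of 9 genes were higher and 3 lower. Mcts1 and its partner Denr, which act in reinitiation, had log2 changes of -1.40 and -0.57, and Gspt1, the release factor eRF3a, of -0.996. Abce1, which splits ribosomes, and Hbs1l, a ribosome rescue factor, had log2 changes of 0.91 and 0.81. In elongation, 2 of 7 were higher and 2 lower, with Eef1e1 and Eef1d at -1.23 and -0.76 and Eef2, the translocase, and Eef1g at 0.87 and 0.48. Of 5 measured genes of eIF2 phosphorylation, only Eif2ak1, the heme-regulated eIF2 kinase, was called. It was at 67.7, 77.5 and 68.5 FPKM in Pabpn1-null samples, against 35.6, 36.7 and 34.05 FPKM in WT samples, a log2 change of 0.99 (limma adjusted p = 3.79e-04).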

How the data were processed

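The deposited table held FPKM with 1 added for each gene symbol and sample. The authors trimmed reads to 50 bases, aligned them with TopHat2 2.1.1 to mm9 plus ERCC sequences, and quantified uniquely mapped reads with Cufflinks 2.2.1 and UCSC gene models. It held 0 ERCC rows, and no spike-in scaling was applied; the rescaled values use fitted factors that may or may not be those of the spike-in. The table holds no counts behind each FPKM, and counting intervals are therefore left out. Whether counting used strand is not given in the sources used here, so antisense and overlapping genes are uncertain.

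After subtracting 1, the 12523 rows exceeding 1 FPKM in any sample entered limma 3.58.1 (R 4.3.3). The model held genotype alone, fitted by lmFit to log2(FPKM + 1) with trended eBayes moderation. P-values were adjusted by Benjamini-Hochberg across all rows fitted, and 0.05 was the threshold. The step was tested on simulated data. Paralog shares were compared by exact permutation, with p-values adjusted by Benjamini-Hochberg in scipy 1.17.1. All members may be named; full statistics go to at most 5 members per group with the largest changes, and of the other translation genes at most 3 per list with the largest changes were to be named. Paip2, Mknk1, Dhx29, Hbs1l, Denr and Eef1g were named beyond this rule, after their values were seen. Alternatives were other pseudocounts, filters, scalings and variance models, the replicate number as a block, and leaving out each sample. Windows of 50 bases were counted in the mm9 genome sequence on both strands. The members and lists were chosen with earlier results of these data known.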

Additional observations from a re-analysis of the deposited data

How the results depend on the processing

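Members called higher numbered 7 with no filter and 0 with the rescaled values, and members called lower 7 with samples scaled to the same total (15 higher) and 24 with the rescaled values. Leaving out 1 sample gave 9 to 12 higher and 9 to 14 lower. Other translation genes called higher numbered 3 with no filter, 10 with the same total and 0 with the rescaled values, and with 1 sample left out 5 to 6 were higher and 10 to 12 lower. All rows called at the same total were 4327 higher and 1778 lower (median log2 change 0.25).

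The median log2 change over all members was -0.16 with a mean of at least 5 FPKM, 0.16 with the same total, -0.15 with median-of-ratios scaling, 0.071 with quantile normalization and -0.59 with the rescaled values, and -0.13 to 0.020 with 1 sample left out. For eIF1 it was 0.43 with the same total and -0.29 rescaled, and for eIF2 -0.11 and -0.86. For eIF2B it was -0.091 with a mean of at least 5 FPKM, 0.27 with the same total, -0.037 with median-of-ratios scaling, -0.48 rescaled, and -0.14 without WT replicate 2 to 0.21 without WT replicate 3. For eIF3 it was 0.038, -0.27, -0.10 and -0.72 with the same total, median-of-ratios, quantile normalization and the rescaled values, and -0.17 to -0.087 with 1 sample left out. For eIF4 these values were 0.57, 0.30, 0.29 and -0.11, and 0.35 to 0.51. For eIF5 they were 0.13, -0.18, 0.15 and -0.62, and -0.32 with a mean of at least 5 FPKM. With quantile normalization the difference in share of all members reversed for eIF1, from -1.49 as deposited to 1.39 percentage points. For eIF3 it went from -1.89 to -3.37, and the difference in the share of Eif4a2 reversed to -0.15.

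With the rescaled values the sign reversed for Eif1a (-0.16), Eif1ad (-0.29), Eif2b1 (-0.48), Eif2b4 (-0.46), Eif3a (-0.27), Eif3h (-0.52), Eif4a1 (-0.17), Eif4b (-0.014), Eif4g1 (-0.11), Eif4h (-0.063) and Eif5 (-0.37). Quantile normalization reversed Eif1b (0.098), Eif3g (0.040) and Eif5a (0.018). Median-of-ratios scaling reversed Eif2b1 (-0.037), Eif2b4 (-0.021) and Eif3h (-0.074), and the same total Eif3c (0.079) and Eif3g (0.038). Without WT replicate 2, Eif2b1 (-0.14), Eif2b4 (-0.055) and Eif3h (-0.12) reversed, and leaving out 1 sample in turn gave -0.14 to 0.21 for Eif2b1, -0.055 to 0.21 for Eif2b4 and -0.12 to 0.14 for Eif3h. The scaling differs by construction and no other cause was tested. Eif2b5, Eif4ebp2 and Eif5a2 have no value with a mean of at least 5 FPKM. Same-numbered samples did not deviate together (correlations -0.014, -0.015 and 0.060). The paper states that WT and knockout mice were littermates. Deviations from a mean of 3 samples cannot show whether the samples were paired. With the replicate block, 3 members gained a call (Eif3k, Eif4e and Eif4g2) and Eif4ebp3 lost it. The table holds no counts, so the counting error of members under 10 FPKM is not given.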
